A study of Mus musculus with 12 samples.

Results

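The genes described here are 10 named genes of the amino acid and integrated stress response: Atf4, Atf5, Atf3, Ddit3, Trib3, Asns, Psat1, Phgdh, Chac1 and Sesn2. They were picked by name from the 56205 genes of the deposited count table as genes of the Atf4 pathway that moved in opposite directions between the groups titled Fibrotic and FLO, with Asns higher and Atf5 lower in Fibrotic livers. Because this contrast helped to choose them, its values for the 10 genes are given as a description and without a test. Of the 10 genes, 9 passed the filter on low counts, as did 13416 genes in all, and Phgdh did not.

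The livers came from 12 ob/ob mice (B6.Cg-Lep ob/J), a leptin-deficient strain with obesity and a fatty liver, and each mouse gave 1 poly(A)-selected library of whole liver RNA. The FLO group (6 mice) received standard chow alone, and the Fibrotic group (6 mice) received the same chow with ethionine, the ethyl analogue of methionine. Mice of both groups carried the leptin mutation, were stated to be male and were 8 to 10 weeks old at the start, so no lean mouse enters the comparison. The labels name 0.165% DL ethionine in the drinking water and, elsewhere, an injection of 0.15%. They give a duration of 2 weeks, where the study's methods give 1 week.

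In the integrated stress response, kinases that sense amino acid shortage, unfolded protein in the endoplasmic reticulum, double-stranded RNA or heme shortage phosphorylate the initiation factor eIF2alpha. General translation then falls, while the mRNAs of Atf4 and Atf5 are translated more efficiently through their upstream open reading frames. Atf4 pairs with C/EBP proteins and induces genes that make amino acids, take them up or adjust signalling, so its mRNA level is only a partial readout of the pathway.

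The depth of a Fibrotic library lay between 17815568 and 20352675 counts and that of a FLO library between 18275320 and 24814263, and mitochondrial genes took 4.93% to 7.88% and 7.30% to 10.2% of them. FLO replicate 3 held 3773 counts of Xist and 4 of the Y-linked gene Ddx3y, against the stated sex, where the other 11 libraries held 0 to 4 and 556 to 977. It was kept, and results that turn on it are given with it left out or with its values named. A gene is called here at an adjusted p of at most 0.01 (edgeR, Benjamini-Hochberg) and a log2 fold change beyond 0.5 in size, which 29.9% of the 13416 tested genes met, 15.9% higher and 14.0% lower in Fibrotic livers. Alb, which marks hepatocytes, had at least 862996 counts in every library. Of the 6 hepatocyte markers 1 was called higher (Cps1, log2 fold change 0.73) and 1 lower (Apoa1, -1.68), and 5 of the 6 were negative. Macrophage and Kupffer cell markers (4 of 5 called higher, summed level 125 to 150 CPM in FLO and 160 to 316 in Fibrotic) and cholangiocyte markers (3 of 5 called higher, 47.0 to 87.9 against 80.6 to 273 CPM) moved with the treatment. Of the other markers, 1 of 5 stellate genes was called higher, 1 of 4 endothelial genes lower, and neither of the 2 tested lymphocyte genes was called. The stellate collagen gene Col1a1 had means of 27.1 CPM in FLO and 23.3 CPM in Fibrotic livers (log2 fold change -0.22, edgeR adjusted p = 0.611). The study also reported no Col1a1 difference in ethionine-treated ob/ob mice. Fibrotic is therefore used here only as the title of a group. Of the acinar genes, from a tissue rich in Asns, Cpa1, Pnlip, Clps and Ctrc had 0 counts in all 12 libraries, while Cela2a had at most 1 count in a FLO library and 16 to 90 in the Fibrotic ones. No adipocyte marker passed the low-count filter, and one of them, Cfd, had 2 to 97 counts in FLO and 0 to 4 in Fibrotic libraries. The part of these markers in the values below was not tested, and in bulk liver fewer cells of a type and less RNA per cell cannot be told apart.

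The promoters were examined for sequence features. The contrast between the groups did not use them, but genes picked by name for the Atf4 pathway are not independent of known Atf4 sites. The core of the C/EBP-ATF response element, the composite site bound by Atf4 with a C/EBP partner, was searched as TGATGNAA on both strands of the RefSeq promoter windows (GRCm38.p6, from 250 bases before to 50 after each start). It lay in 3.97% of 32851 windows, in 2.41% of the 12922 windows of tested genes and in windows of 4 of the 10 genes. These were Asns, Chac1, Atf3 and Trib3, and nothing is read from this share. The stretches that carry it are shown because these are the letters by which Atf4 targets are usually recognised. Stretches of Sesn2 and Atf5 are shown beside them as examples without a match. Capitals mark a match, and each stretch is written on the strand of its gene.
Asns promoter (chr6:7693200-7693309, minus strand): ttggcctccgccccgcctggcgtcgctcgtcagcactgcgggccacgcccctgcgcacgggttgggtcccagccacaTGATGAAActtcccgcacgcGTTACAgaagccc
Chac1 promoter (chr2:119351042-119351191, plus strand): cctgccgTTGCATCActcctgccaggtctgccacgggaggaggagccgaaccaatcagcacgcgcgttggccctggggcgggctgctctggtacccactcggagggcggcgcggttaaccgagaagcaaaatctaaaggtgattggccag
Atf3 promoter (chr1:191183334-191183453, minus strand): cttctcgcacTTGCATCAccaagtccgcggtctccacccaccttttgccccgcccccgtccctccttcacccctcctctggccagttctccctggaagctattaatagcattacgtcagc
Trib3 start (chr2:152344029-152344058, minus strand): attagctcaggtTTACATCAgccgggcggg
Sesn2 promoter (chr4:132510457-132510556, minus strand): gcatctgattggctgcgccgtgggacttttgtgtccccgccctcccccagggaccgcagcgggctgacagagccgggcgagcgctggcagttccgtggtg
Atf5 promoter (chr7:44816659-44816758, minus strand, first of 2 windows): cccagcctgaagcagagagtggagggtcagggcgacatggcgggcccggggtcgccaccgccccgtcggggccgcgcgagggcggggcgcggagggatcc

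Counted from 1 at the start of the transcript, with -1 the base before it, the core lay at -23 to -16 in Asns, on the strand of the gene. In Chac1 it lay at -193 to -186, in Atf3 at -110 to -103 and in Trib3 at 15 to 22, each time on the opposite strand, so that the printed letters are its reverse complement. The second capital stretch of Asns, at -3 to 3, is GTTACA, nutrient sensing element 2 of the Asns promoter. It was in 8.25% of all windows, in 5.76% of those of tested genes and in no other of the 10 genes. A full cAMP response element, TGACGTCA, was in 1.79% of all windows, in 2.82% of those of tested genes and in none of the windows of the 10 genes. These 3 motifs share no position in the windows shown, and a match is a run of letters, not a measured binding site.

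Asns, asparagine synthetase, had the highest fold difference of the 10 genes. Its level in CPM (counts scaled to the TMM-normalized depth of the library) in FLO replicates 1 to 6 was 0.383, 0.517, 0.642, 0.490, 0.711 and 0.711. In Fibrotic replicates 1 to 6 it was 13.5, 2.80, 1.40, 11.1, 3.52 and 7.60. Every Fibrotic liver was above every FLO liver, yet the Fibrotic livers differed widely among themselves, from 26 to 278 counts, where FLO livers held 7 to 15. The means were 0.575 ± 0.133 CPM (SD, n = 6) in FLO and 6.66 ± 4.90 (SD, n = 6) in Fibrotic livers, an 11.5-fold difference (log2 fold change 3.52, SE 0.53), and the coefficient of variation was 23.2% in FLO and 73.5% in Fibrotic livers. The Asns gene lies at chr6:7675165-7693209 (GRCm38.p6).

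Read against all genes, the 10 genes were mixed. Of the 9 tested members 3 met the call rule, as did 29.9% of the 13416 tested genes, with Asns and Sesn2 higher (15.9% of all genes were) and Atf5 lower (14.0% of all genes were). The groups did not overlap for 2 of the 9, Asns and Atf4, as for 30.4% of all tested genes, and the median log2 fold change was 0.20 over the 9 and 0.03 over all tested genes. With an adjusted p of 0.05 and no limit on size, 5 of the 9 passed, as did 52.1% of all genes. Without FLO replicate 3, the library with Xist, Atf5 (log2 fold change -0.73) and Sesn2 (0.62) were no longer called and Atf4 (0.51) was. Over 19 alternative fits the call of Atf5 was lost in 8 and that of Sesn2 in 7. Nothing is read from these counts, shares and calls, since the contrast entered the choice and fixed the directions of Asns and Atf5.

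**Figure D1:**
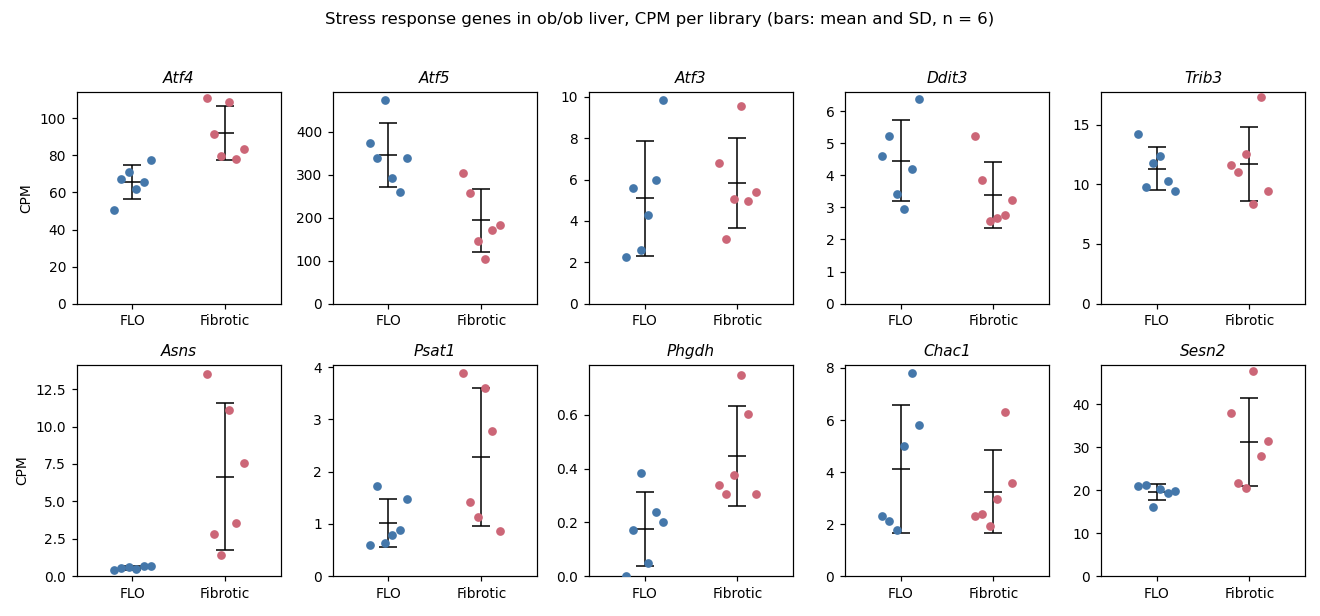
CPM (y axis) of the 10 genes in each of the 6 FLO and 6 Fibrotic livers (points), with the mean and SD (bars); each panel has its own scale from 0. The Fibrotic points of Asns, at 1.40 to 13.5 CPM, and of Atf4, at 77.9 to 111 CPM, lie above all FLO points, and Atf5 runs the other way with 5 of 6 Fibrotic points below all FLO points.

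Among the transcription factors, Atf4 and Atf5 differed in opposite directions. Atf4, the central effector of the response, was at 50.6, 67.4, 71.2, 61.7, 65.9 and 77.7 CPM in FLO replicates 1 to 6. In Fibrotic replicates 1 to 6 it was at 111, 91.4, 79.5, 109, 77.9 and 83.4 CPM. The groups stood apart by a narrow gap, and Fibrotic replicates 1 and 4, the livers with the most Asns, also had the most Atf4. The means were 65.7 ± 9.18 and 92.1 ± 14.7 CPM (SD, n = 6 each), a log2 fold change of 0.49 (SE 0.12) that lay between 0.42 and 0.54 when each library was left out in turn. The Atf4 gene lies at chr15:80255184-80257545.

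Atf5, a relative of Atf4 that is rich in liver and has been linked to the mitochondrial stress response, was at 375, 339, 474, 293, 260 and 339 CPM in FLO replicates 1 to 6. In Fibrotic replicates 1 to 6 it was at 303, 257, 145, 104, 170 and 182 CPM. Only Fibrotic replicate 1 reached into the FLO range, and Fibrotic replicate 4, second in Asns, had the least Atf5. The means were 347 ± 74.2 and 194 ± 73.6 CPM (SD, n = 6 each), a 1.79-fold lower level in Fibrotic livers (log2 fold change -0.84, SE 0.23). Leaving out each library in turn gave log2 fold changes of -1.01 to -0.70.

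Atf3, an early stress-induced factor, and Ddit3, the pro-apoptotic factor also called Chop, were not called. Atf3 ran from 2.24 to 9.85 CPM (median 4.94) in FLO and from 3.11 to 9.55 CPM (median 5.24) in Fibrotic livers, with a log2 fold change of 0.20 (SE 0.34). Ddit3 ran from 2.94 to 6.40 CPM (median 4.40) in FLO and from 2.59 to 5.24 CPM (median 3.005) in Fibrotic livers, with a log2 fold change of -0.39 (SE 0.22). The Fibrotic range of Atf3 lay inside that of FLO, whereas 3 Fibrotic livers had less Ddit3 than any FLO liver. Trib3, a pseudokinase induced by Atf4 with Ddit3 that feeds back on the pathway, was at 9.40 to 14.2 CPM (median 11.0) in FLO and at 8.38 to 17.3 CPM (median 11.3) in Fibrotic livers. Its log2 fold change of 0.05 (SE 0.16) was the smallest of the 9 in size.

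Sesn2, sestrin 2, a leucine-binding inhibitor of mTORC1, was at 21.1, 21.1, 16.0, 20.4, 19.4 and 19.8 CPM in FLO replicates 1 to 6. In Fibrotic replicates 1 to 6 it was at 38.1, 21.7, 20.5, 47.7, 28.0 and 31.5 CPM. All Fibrotic livers but replicate 3 were above every FLO liver, and the 4 with the most Asns were also the 4 with the most Sesn2. The means were 19.6 ± 1.90 and 31.3 ± 10.3 CPM (SD, n = 6 each), a log2 fold change of 0.67 (SE 0.18). Leaving out each library in turn gave log2 fold changes of 0.52 to 0.77. FLO replicate 3, the library with Xist, had the least Sesn2, and without it the log2 fold change was 0.62. Chac1, which breaks down glutathione, was at 1.75 to 7.82 CPM (median 3.65) in FLO and 1.94 to 6.29 CPM (median 2.67) in Fibrotic livers, with a log2 fold change of -0.34 (SE 0.39).

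The serine synthesis genes were low in these livers. Psat1, phosphoserine aminotransferase, was at 0.602, 1.72, 0.642, 0.783, 0.888 and 1.47 CPM in FLO replicates 1 to 6. In Fibrotic replicates 1 to 6 it was at 3.88, 1.43, 1.13, 3.60, 2.77 and 0.861 CPM. Fibrotic replicates 1, 4 and 5 were above every FLO liver and the rest lay inside the FLO range. The log2 fold change was 1.17 (SE 0.40), and 0.96 to 1.37 when each library was left out in turn. Phgdh, the first enzyme of the pathway, had 0 to 9 counts in FLO and 6 to 16 in Fibrotic libraries and was not tested. Its mean level was 0.174 ± 0.138 CPM in FLO and 0.447 ± 0.186 CPM in Fibrotic livers (SD, n = 6 each), and a fit with no low-count filter gave a log2 fold change of 1.30 (SE 0.56).

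Levels of different genes were set side by side only per length, as CPM per kilobase of the longest GENCODE M21 transcript. In FLO livers Atf5 was first at 190.9 ± 40.9 CPM per kilobase and Atf4 second at 32.6 ± 4.55 (SD, n = 6 each), each with a range clear of the next gene. Sesn2 (5.65), Trib3 (5.58), Ddit3 (4.61), Atf3 (2.57) and Chac1 (2.52 CPM per kilobase) followed, and each overlapped its neighbour in that order. A gap then separated Chac1 from Psat1 (0.389), Asns (0.285 ± 0.0662) and Phgdh (0.0921), whose ranges also overlapped in turn. In Fibrotic livers the order was kept except for Asns, which went from the ninth place to the sixth, at 3.30 ± 2.43 CPM per kilobase (SD, n = 6).

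How the 10 genes varied from mouse to mouse inside a group was not used to choose them. Of the 9 relations of Asns in Fibrotic livers, that with Sesn2 was the closest, with Pearson r = 0.93 (two-sided exact permutation p = 0.00972, or 0.158 once adjusted over the 18 relations) and Spearman rho = 0.94 (exact p = 0.0167, or 0.263 adjusted). It stayed between 0.90 and 0.96 without any 1 library and was 0.94 without the 2 livers farthest from the median of Asns, and Sesn2 ranked 114 of 13415 genes by r with Asns in Fibrotic livers. In FLO livers, where Asns was low, the same pair had r = -0.52 (exact p = 0.287, 0.511 adjusted) and rho = -0.60 (exact p = 0.242, 0.483 adjusted), and the difference between the groups was not tested. That r was -0.87 without FLO replicate 3, the library with Xist, and otherwise between -0.62 and -0.41. In FLO livers Asns had a mean of 11.2 counts, for which counting error alone gives a coefficient of variation of 29.9%, no less than the 23.2% measured, so its FLO coefficients here and below rest on a spread no larger than counting error. The TMM factor of the library moved with both genes in Fibrotic livers, with r = 0.67 for Asns and 0.87 for Sesn2, and its part in the relation was not tested.

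Asns and Atf4 had positive coefficients in both groups, as did Asns with Chac1, Ddit3, Atf3, Psat1 and Phgdh. Leaving out 1 library took some of them below 0. These were Chac1 (down to -0.38) and Phgdh (-0.25) in Fibrotic and Ddit3 (-0.19) and Psat1 (-0.059) in FLO livers. For Atf4, r was 0.87 in FLO (exact p = 0.0181, 0.158 adjusted) and 0.77 in Fibrotic livers (exact p = 0.0861, 0.310 adjusted). The rho values were 0.83 (exact p = 0.0583, 0.263 adjusted) and 0.71 (exact p = 0.136, 0.350 adjusted), and r without the 2 farthest livers was 0.51 and 0.58, so that part of the size rested on those livers, and r in FLO was 0.67 without FLO replicate 1. Asns and Trib3 had negative coefficients in both, with r = -0.76 in FLO (exact p = 0.0819, 0.310 adjusted) and -0.51 in Fibrotic livers (exact p = 0.312, 0.511 adjusted). Their rho was -0.83 (exact p = 0.0583, 0.263 adjusted) and -0.43 (exact p = 0.419, 0.581 adjusted), and r without the 2 farthest livers was -0.22 and -0.72. Their r was -0.45 without FLO replicate 1 in FLO and -0.33 without Fibrotic replicate 4 in Fibrotic livers. None of the 18 relations reached an adjusted p of 0.05, for r or for rho, while 3 values of r and 1 of rho had an unadjusted p under that level. These r values were those with Sesn2 in Fibrotic livers and with Atf4 and Phgdh in FLO livers. With Phgdh, which had 0 to 9 counts in FLO libraries, r was 0.87 in FLO (exact p = 0.0264, 0.158 adjusted) and 0.19 in Fibrotic livers (exact p = 0.664, 0.818 adjusted).

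**Figure D2:**
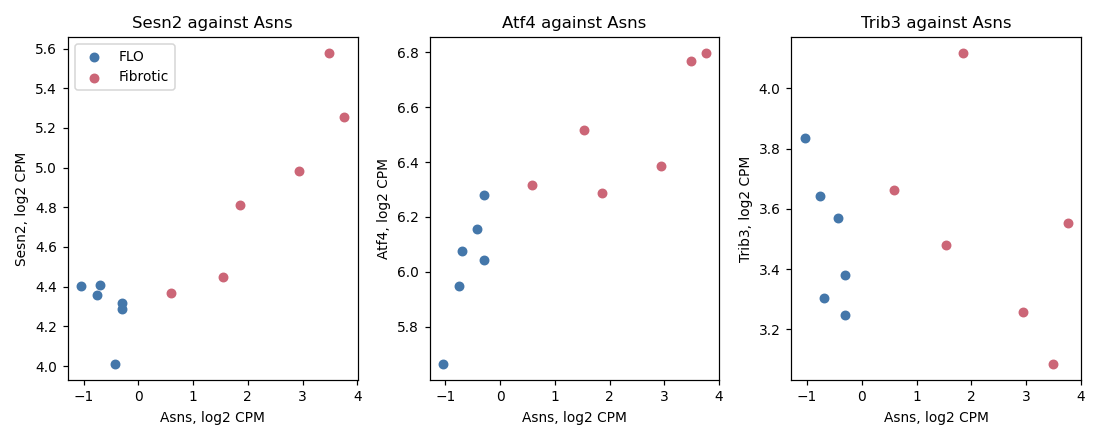
Level of Sesn2, Atf4 and Trib3 (y axes, log2 CPM) against that of Asns (x axes, log2 CPM), 1 point per liver and 6 livers per group. The Pearson r with Asns was 0.93 for Sesn2 in Fibrotic livers, 0.87 (FLO) and 0.77 (Fibrotic) for Atf4, and -0.76 and -0.51 for Trib3, none of them past an adjusted p of 0.05.

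Over all 45 pairs of the 10 genes, coefficients inside a group were spread from strongly negative to strongly positive. The median r was 0.17 in Fibrotic and 0.21 in FLO livers. In Fibrotic livers 33.3% of the pairs were over 0.5, where 20.3% of all pairs of tested genes were, and in FLO livers 22.2% were, where 18.5% of all pairs were. With 6 livers such coefficients are loose, and the pairs share libraries and genes, so they are given as a description with no test. Beside Asns and Sesn2, the highest in Fibrotic livers were Ddit3 with Atf5 (0.90) and Atf3 with Sesn2 (0.88), and the lowest was Atf5 with Phgdh (-0.74). In FLO livers the lowest 4 were Trib3 with Atf3 (-0.88), with Psat1 (-0.87) and with Atf4 (-0.84), and Chac1 with Atf5 (-0.84). Some of these genes also moved with library measures. In Fibrotic livers r with the TMM factor was 0.82 for Atf3 and 0.87 for Sesn2, and with the total count 0.68 for Ddit3 and 0.77 for Atf5. In FLO livers r with the mitochondrial share was 0.92 for Chac1 and -0.84 for Atf5. The part of these measures in the pairs was not tested.

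**Figure D3:**
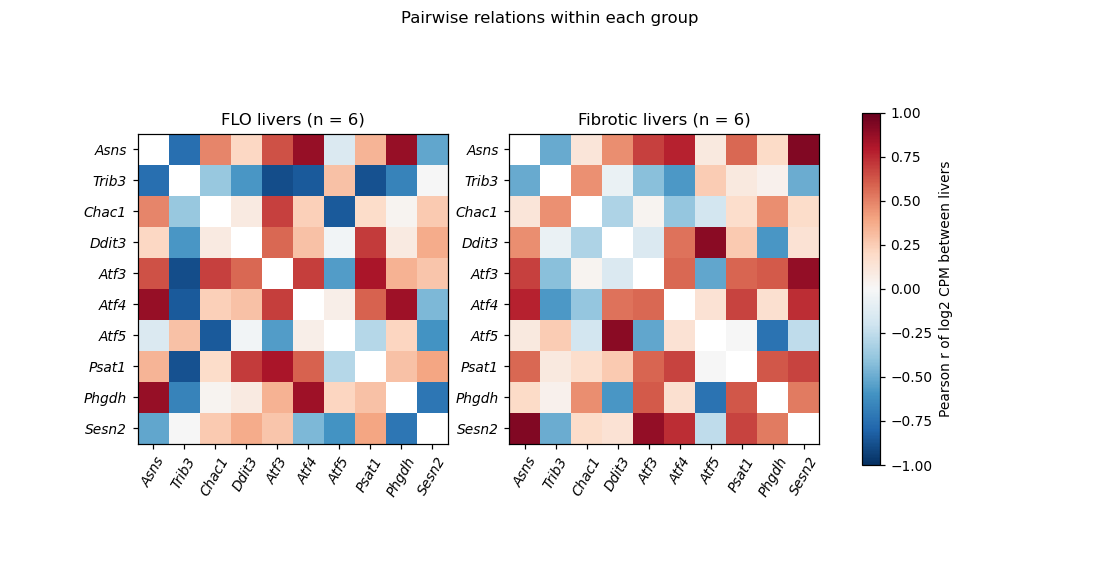
Pearson r of log2 CPM for each pair of the 10 genes (rows and columns) over the 6 FLO livers (left) and the 6 Fibrotic livers (right), red positive and blue negative. The Trib3 row is mostly blue in FLO livers, down to -0.88 with Atf3, and the darkest red cell in Fibrotic livers is Asns with Sesn2 at 0.93.

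The genes upstream of Atf4 were then described from a list of 14. It holds eIF2alpha kinases and their regulators, eIF2alpha itself, phosphatase subunits and exchange factor subunits. None of them was used in choosing the 10 genes, but all lists were chosen with earlier results of these data known. In the edgeR quasi-likelihood fit with Benjamini-Hochberg adjustment over all tested genes, 1 of the 14 (7.14%) was called higher and 0 lower, where 29.9% of all tested genes were called, and their median log2 fold change was 0.11. The called gene was Eif2b2, a subunit of the exchange factor that eIF2alpha phosphorylation blocks (0.60, SE 0.08, adjusted p = 1.16e-05). Of the 4 kinases, the heme-regulated Eif2ak1 was at 52.6 to 63.5 CPM in FLO and 73.6 to 83.3 CPM in Fibrotic livers, with no overlap. On the log2 scale it stood 0.48 higher (SE 0.07, adjusted p = 3.07e-05), under the size limit, and it was called in 1 of 19 alternative fits, without FLO replicate 4 (0.51). The log2 fold changes of Eif2ak2, Eif2ak3 and Eif2ak4, which respond to double-stranded RNA, endoplasmic reticulum stress and uncharged tRNA, were -0.21, 0.21 and -0.10 (adjusted p = 0.239, 0.0570 and 0.483). Ppp1r15a, the stress-induced phosphatase subunit also called Gadd34, stood at 8.65 ± 1.55 CPM in FLO and 6.60 ± 1.05 CPM in Fibrotic livers (SD, n = 6 each; log2 fold change -0.39, adjusted p = 0.0286).

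Of the amino acid transporters known to respond to Atf4, several were higher in Fibrotic livers. Of 9 listed genes 7 were tested, 4 were called higher (57.1%, against 15.9% of all tested genes) and 0 lower, and the median log2 fold change over the 7 was 1.37, where that of all tested genes was 0.03. Slc3a2, the heavy chain shared by several exchangers, was at 46.8 to 55.5 CPM in FLO and 143 to 186 CPM in Fibrotic livers (log2 fold change 1.71, SE 0.08, adjusted p = 1.44e-09). Its partner Slc7a5, the light chain that carries leucine and other large neutral amino acids, was at 2.24 to 3.43 and 6.11 to 13.4 CPM (1.72, SE 0.19, adjusted p = 2.91e-06). The neutral amino acid carriers Slc1a5 (1.44, SE 0.18, adjusted p = 9.70e-06) and Slc1a4 (1.37, SE 0.16, adjusted p = 4.31e-06) rose as well. None of these 4 had overlapping groups, and their calls held in all 19 alternative fits. Slc7a11, the cystine carrier, was not tested: it had 2 to 8 counts in FLO libraries and 33, 2, 0, 381, 21 and 13 in Fibrotic replicates 1 to 6, so that 1 library, Fibrotic replicate 4, held most of them. Slc7a3, also not tested, had 0 to 2 counts in FLO and 2 to 12 in Fibrotic libraries.

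Other known Atf4 targets moved both ways. Of 14 listed, 13 were tested, 5 were called higher and 1 lower (46.2% in all, against 29.9% of all tested genes), with a median log2 fold change of 0.23. Ddit4, an inhibitor of mTORC1, was at 17.6 to 37.3 CPM in FLO and 45.3 to 111 CPM in Fibrotic livers (1.68, SE 0.23, adjusted p = 3.95e-05). Cth, which makes cysteine from cystathionine, rose by 1.23 on the log2 scale (SE 0.23, adjusted p = 0.000387) from an already high 473 ± 125 CPM (SD, n = 6). Cebpb (0.98, SE 0.15, adjusted p = 6.26e-05) and Cebpg (0.69, SE 0.09, adjusted p = 1.39e-05), partners of Atf4 on its composite sites, rose without overlap between groups, and Eif4ebp1, a repressor of cap-dependent translation, was 0.59 higher (SE 0.13, adjusted p = 0.00116). Sqstm1, the autophagy receptor p62, was called lower at -0.50 (SE 0.09, adjusted p = 0.000297), a size at the limit that slipped to between -0.47 and -0.50 and out of the call without Fibrotic replicate 1, 2, 4 or 6 or FLO replicate 1, 3 or 6.

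The secreted hormones of the response were not called in the chosen fit. Gdf15 ran from 13.6 to 41.0 CPM in FLO and from 31.7 to 82.4 CPM in Fibrotic livers (log2 fold change 1.07, SE 0.31, adjusted p = 0.0107), and was called when Fibrotic replicate 2 (adjusted p = 0.00902) or FLO replicate 6 (adjusted p = 0.00117) was left out, by DESeq2 (adjusted p = 0.000660), by limma-voom (adjusted p = 0.00405) and with a minimum of 10 counts in each library (adjusted p = 0.00908). Fgf21 lay the other way, at 3.32 to 12.2 CPM in FLO and 1.78 to 5.57 CPM in Fibrotic livers (log2 fold change -0.98, SE 0.36, adjusted p = 0.0353). Nupr1, a small stress-induced nuclear protein, was near the detection limit at 0.701 ± 0.382 and 0.493 ± 0.200 CPM (SD, n = 6 each; adjusted p = 0.263).

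**Figure D4:**
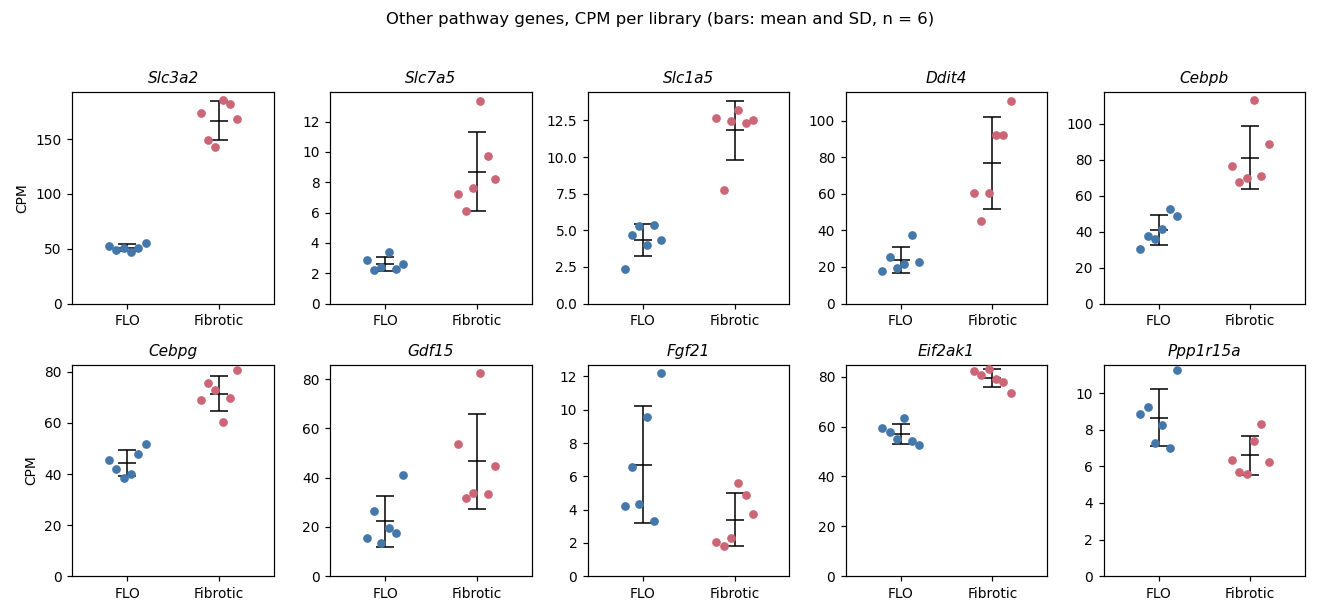
CPM (y axis) of 10 other genes of the pathway in each FLO and Fibrotic liver (points), with the mean and SD (bars, n = 6 per group); each panel has its own scale from 0. Slc3a2, Slc7a5, Slc1a5, Ddit4, Cebpb, Cebpg and Eif2ak1 separate the groups, with Slc3a2 at 46.8 to 55.5 against 143 to 186 CPM, whereas Gdf15, Fgf21 and Ppp1r15a overlap.

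The enzymes around Psat1 and Phgdh were described next. Of 8 listed genes of serine, glycine and proline synthesis, 6 were tested. Of these 1 (16.7%) was called higher and 0 lower, where 15.9% and 14.0% of all tested genes were, and the median log2 fold change was 0.36. The called gene was Aldh18a1, which starts proline synthesis (1.47, SE 0.27, adjusted p = 0.000313). Psph, which follows Psat1 in serine synthesis, stood at 0.37 on the log2 scale (SE 0.17, adjusted p = 0.0746), and Shmt2, the mitochondrial enzyme that turns serine into glycine, at -0.30 (SE 0.09, adjusted p = 0.00980), under the size limit. Mthfd2, its mitochondrial folate partner, stood at 0.82 (SE 0.25, adjusted p = 0.0120) and was called when Fibrotic replicate 2, Fibrotic replicate 3 or FLO replicate 6 was left out (adjusted p = 0.00401, 0.00699 and 0.00495), and by DESeq2 (adjusted p = 0.00723). Of 13 genes of cytosolic tRNA charging and export, 1 was called higher and 1 lower (15.4% in all, against 29.9% of all tested genes), with a median log2 fold change of 0.06. Gars1, for glycine, rose by 0.68 (SE 0.07, adjusted p = 2.51e-06) and Tars1, for threonine, fell by 0.84 on the log2 scale (SE 0.15, adjusted p = 0.000318).

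Other branches of protein stress were listed for comparison. Of 13 endoplasmic reticulum chaperones and targets of Xbp1 and Atf6, 1 was called higher and 4 lower (38.5% in all, against 29.9% of all tested genes), with a median log2 fold change of -0.33. The lower ones were Hyou1 (-0.96, SE 0.24, adjusted p = 0.00382), Creld2 (-0.92, SE 0.15, adjusted p = 8.60e-05), Pdia6 (-0.64, SE 0.10, adjusted p = 5.47e-05) and Calr (-0.52, SE 0.12, adjusted p = 0.00165). Without Fibrotic replicate 4 the calls of Hyou1 (adjusted p = 0.0119) and Calr (-0.43) were lost, that of Calr also without FLO replicate 1 (-0.46) and that of Hyou1 also with no low-count filter (adjusted p = 0.0169). The higher one was Dnajb9 (0.51, SE 0.13, adjusted p = 0.00448), whose call was lost in 8 of 19 alternatives, among them leaving out Fibrotic replicate 4 or 5 or FLO replicate 2, 4, 5 or 6 (0.45 to 0.50). Of 6 genes of the mitochondrial unfolded protein response, with which Atf5 has been linked, 0 were called either way by edgeR, where 29.9% of all tested genes were. Of these genes 5 were positive, and all 6 passed an adjusted p of 0.05 with no limit on size, as did 52.1% of all tested genes. The nearest was Hspa9, a mitochondrial Hsp70, at 0.49 (SE 0.09, adjusted p = 0.000245), which was called without Fibrotic replicate 1, 3, 4 or 6 or FLO replicate 1 (0.50 to 0.53).

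Relatives of the 10 genes were described last. Of 20 listed ATF, CREB and C/EBP factors, 19 were tested, 2 were called higher (Cebpb and Cebpg, given above) and 1 lower (15.8% in all, against 29.9% of all tested genes), with a median log2 fold change of -0.03. The lower one was Cebpe, a C/EBP factor best known from granulocytes, at 9.88 to 17.1 CPM in FLO and 1.59 to 7.39 CPM in Fibrotic livers (-1.40, SE 0.25, adjusted p = 0.000305). Among 5 paralogs of Trib3, Sesn2 and Chac1, 0 were called higher and 1 lower (20% in all, against the same 29.9%), with a median log2 fold change of -0.23. Sesn3 was that one (-0.51, SE 0.12, adjusted p = 0.00278), and its call was lost without Fibrotic replicate 3, 5 or 6 or FLO replicate 1 or 3 (-0.41 to -0.49). Sesn1 had a log2 fold change of -0.41 (adjusted p = 0.0233), so both relatives of Sesn2 had log2 fold changes opposite in sign to its own. Trib1 (0.03), Trib2 (-0.23) and Chac2 (0.06) had adjusted p-values of 0.924, 0.328 and 0.715.

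**Figure D5:**
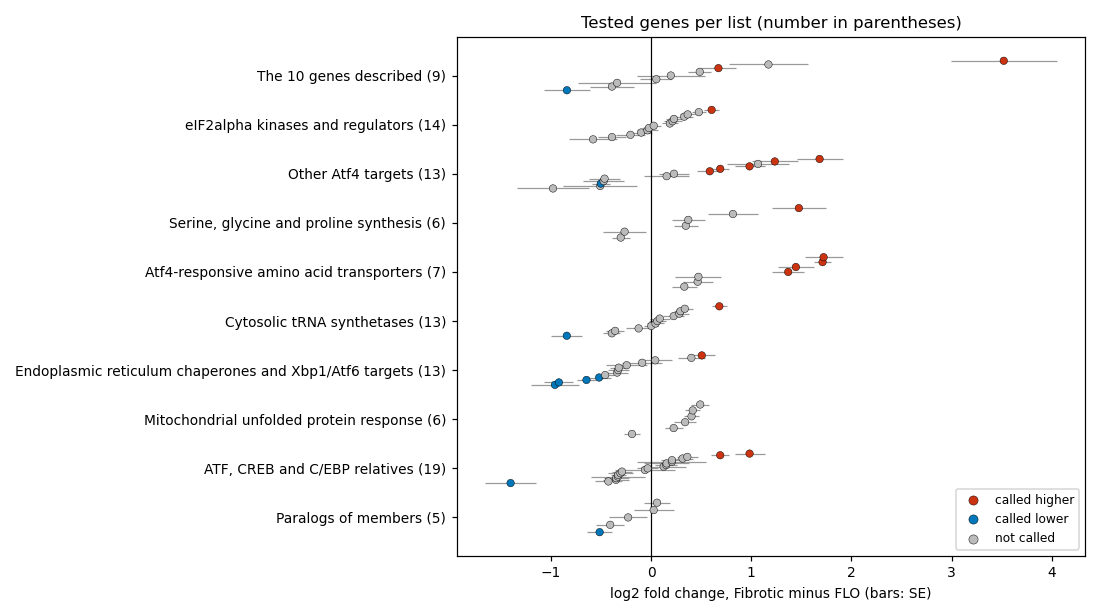
Log2 fold change, Fibrotic minus FLO (x axis), of every tested gene of the 10 described genes and 9 lists of related genes (rows), with SE bars; red and blue points are called higher and lower, grey points are not called. Asns lies alone at 3.52, 4 of 7 transporters lie between 1.37 and 1.72, and the endoplasmic reticulum list leans below 0 with 4 genes called lower.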

How the data were processed

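The authors deposited 1 table of raw counts, whole numbers per Ensembl gene, for 12 liver libraries. The submitters' processing notes name bcl2fastq, STAR 2.7.3a and mm10, and the study's methods name PISCES. The mouse annotation, the counter of these libraries and its strand setting are not given in the sources used here, so reads of overlapping antisense genes cannot be told apart. The study's methods give the ethionine as 0.15% in drinking water for 1 week, and the labels as 0.165% for 2 weeks or an injection. Symbols matched 51745 of 56205 identifiers, and 0 sample columns were left unused. Ddit3 had 2 identifiers, of which the one with counts was used, and some tRNA synthetases and Gcn1 stand under older symbols. Coordinates and promoters are from RefSeq (GRCm38.p6) and are no claim on the table's annotation.

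Groups and replicate numbers came from the sample titles. Fibrotic and FLO livers were compared in R 4.3.3 with edgeR 4.0.16 (robust quasi-likelihood fit, TMM, filterByExpr, Benjamini-Hochberg adjustment over all tested genes), with calls at an adjusted p up to 0.01 and a log2 fold change beyond 0.5 in size. The SE is the size of the log2 fold change over the square root of F. Correlations used log2 CPM (prior count 2) and the two-sided exact permutation test with its 720 pairings (scipy 1.17.1), with adjusted values over 18 relations. SDs between libraries include counting error, and all replicate pairs differed by more than sampling noise in a chi-square test. No batch is given in the labels. The fit was tested on simulated data. The 10 genes and all lists were chosen with earlier results of these data known. Besides the 10 genes, the text names a fixed set of pathway genes, up to 4 called genes per list and direction by size, and the 5 genes most like Asns and like Atf5. The transporter Slc7a11 and Slc7a3, Cela2a and other markers, and Hspa9 were named after their values were seen. Alternatives were RLE and TMM without the 50 largest genes, leaving genes of low count in, a minimum of 10 counts in each library, DESeq2 1.42.0, limma-voom (limma 3.58.1), a prior count of 0.5 for correlations, a replicate block, an adjusted p of 0.05 with no size limit, and leaving out each library.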

Additional observations from a re-analysis of the deposited data

Results flagged for a closer look

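Gene levels inside each group of 6 livers were screened for a liver far from the rest, as the gap of the highest or lowest value to its nearest neighbour over the whole range of the group, with Dixon's critical value of 0.625 for 6 values. Of 58 groups (29 genes in 2 groups) 4 exceeded it, where chance flags about 1 in 20, or 2.9. Sesn2 was lowest in FLO replicate 3, the library with Xist counts, at 16.0 CPM with the next at 19.4 (ratio 0.667). Mthfd2 was highest in FLO replicate 6 at 2.49 CPM with the next at 1.67 (ratio 0.683), and Nupr1 was highest in the same liver at 1.42 CPM with the next at 0.770 (ratio 0.639). Trib1 was highest in Fibrotic replicate 4 at 101 CPM with the next at 53.9 (ratio 0.770). Their causes were not tested.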

How the results depend on the processing

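All 170 alternative values of the log2 fold changes of the 9 tested genes moved by less than the spread between replicates (Trib3, not called, lay on both sides of 0, at -0.08 to 0.14). Leaving out 1 library can hardly move a mean by that much, so for those fits this measure could not show a lack of stability. Of the 180 alternative counts over the other lists 155 stayed within 1.5 times. Calls of the described genes are no test of them, since the same contrast chose them. At an adjusted p of 0.05 with no limit on size, more genes pass by construction: 6994 of all genes, 5 of the 9 described genes, 6 eIF2alpha genes, 4 of serine, glycine and proline synthesis, 7 of tRNA charging, 10 of the endoplasmic reticulum, 6 of the mitochondrial response, 11 ATF, CREB and C/EBP relatives and 2 paralogs. DESeq2 called 2 genes of serine, glycine and proline synthesis, and limma-voom called 0 paralogs; the cause was not tested. Leaving out 1 library gave 3798 to 4093 calls over all genes and 2 to 3 among the described genes, not always the same genes. It gave 1 to 2 for the eIF2alpha list, 1 to 2 for serine, glycine and proline synthesis, 2 to 5 for the endoplasmic reticulum, 0 to 1 for the mitochondrial response and 0 to 1 for paralogs. It also moved the r of Asns with Atf5 (-0.41 to 0.66), Chac1 (-0.38 to 0.59) and Phgdh (-0.25 to 0.43) in Fibrotic and with Atf5 (-0.58 to 0.23), Psat1 (-0.059 to 0.64) and Ddit3 (-0.19 to 0.44) in FLO livers, so these have no settled sign.

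Replicate numbers did not pair the samples: deviations of same-numbered livers from their group means had r between -0.162 and 0.104, and 0 of 6 livers were closest to their own number. With the replicate block, 3780 genes were called, 3694 of them shared with the 4012 without it, the described genes kept 3 calls, paralogs had 0, and no other list count moved. Low counts limit Phgdh, Asns in FLO livers, Slc7a3 and Slc7a11 most, and a minimum of 10 counts in each library left Asns and Phgdh without a value.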

Other observations

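The genes whose level moved most like that of Asns between livers of the same group, by Pearson r of group-centred log2 CPM over 12 libraries and among 13415 genes, were Zap70 (0.95), Cpsf7 (0.93), Deaf1 (0.92), Prpf3 (0.91) and Ggta1 (0.91). In Fibrotic livers r was 0.98, 0.97, 0.95, 0.95 and 0.91 for these 5, and in FLO livers 0.46, 0.90, 0.85, 0.68 and 0.93. Zap70, a T cell kinase, was itself lower in Fibrotic livers, at 2.27 against 8.65 CPM (log2 fold change -1.92, SE 0.27, edgeR adjusted p = 3.34e-05). The summed level of the 4 lymphocyte markers was 0.820 to 3.79 CPM in FLO and 1.03 to 4.30 CPM in Fibrotic livers. The source of the Zap70 difference was not tested. For Atf5 the 5 most alike were Hes6 (0.94), Fam213b (0.94), Dusp28 (0.94), 4430402I18Rik (0.93) and Rpl8 (0.93). With Rpl8, a ribosomal protein gene, r was 0.99 in Fibrotic and 0.68 in FLO livers. These are the highest of 13415 coefficients over 12 libraries that share depth and scaling, and are given as a description with no test.

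Atf5 also moved with measures of the library inside groups, and it was not alone among the described genes. For Chac1, r with the mitochondrial share was -0.91 in Fibrotic and 0.92 in FLO livers. For Atf3 it was -0.06 and 0.82. Phgdh had r = 0.80 with the TMM factor in Fibrotic and 0.39 in FLO livers. The r of Atf5 with the total count was 0.77 in Fibrotic and 0.73 in FLO livers, and with the mitochondrial share 0.43 and -0.84. FLO replicate 3, the library with Xist, had both the most counts (24814263) and the most Atf5 (474 CPM) of the FLO livers. The FLO coefficients were not computed without it, so they may rest on that library. The part of depth and of the other measures in the levels of Atf5 and these other genes was not tested.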
